A study of Mus musculus with 4 samples.

Results

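Of the 17754 peaks called with the Santa Cruz antibody against topoisomerase IIβ (TOP2B) in mouse thymocytes, 551 lay in exons away from promoters and shared no base with a peak of the Novus antibody against the same protein. They were chosen by position: no overlap with any of the 3564 Novus peaks, the centre in an exon of a protein-coding transcript of GENCODE M1, and a centre more than 1 kb from every protein-coding transcription start of that annotation (mouse genome mm9). The 551 peaks are 3.29% of the 16751 Santa Cruz peaks without a Novus overlap (exact 95% interval 3.02 to 3.57%). Their absence from the Novus list, their place in exons and their distance from starts were selected on and are therefore not results.

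Thymocytes were isolated from the thymus of C57BL/6 mice, wild type and 4 to 6 weeks old, and TOP2B binding was measured by ChIPseq, in which fixed chromatin is precipitated with an antibody and its DNA sequenced. The series holds 4 libraries, 1 each for the Santa Cruz antibody, the Novus Biologicals antibody, IgG and an antibody against TOP2A; the IgG and TOP2A libraries were not analysed here. Each antibody has 1 library, so the spread between replicates is unknown, and the antibodies cannot be told apart from the libraries. Peak lists hold no expression values, so the cell type given in the labels was not checked against marker genes.

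TOP2B relaxes DNA by cutting both strands of a duplex, passing another duplex through the gap and sealing it again, and it acts ahead of and behind moving polymerases. In many cell types it is found at promoters, enhancers and the sites of CTCF and cohesin, the protein and the ring complex that together anchor chromatin loops. Exons of coding genes are of mixed kind: internal exons are short and mostly coding, while the last exon holds the stop codon and usually a long 3′ untranslated stretch that ends where the transcript is cut and polyadenylated.

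Among the 295 members centred in coding sequence, 5 were picked to show what a member with a CTCF match looks like. Of the 295, 18 hold the CTCF core motif without mismatch, and the 5 are those with the match closest to the peak centre among the ones considered, whose 30 bases around it lie wholly in coding sequence. Capitals mark the 12 bases of the motif, each sequence is written 5′ to 3′ on the strand of the motif, and positions are in mm9.
Coro7: ttctcgaggCCACCAGGGGGCacccgccat
Ddr1: gccaggtggCCACCAGGGGGCtggtgggaa
Synpo2l: ttcatgcagCCACTAGGGGGCaggagttac
Flot1: tgagcgcgcCCAGCAGGTGGCagtgcagga
Ap1g1: cgtagagctCCAGCAGAGGGCagtagagta

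The window in Coro7, a coronin-family gene of Golgi trafficking, is chr16:4632251-4632280 on the plus strand, against a gene on the minus strand. Its match was 1.5 bp from the centre of the peak, in an internal coding exon of 87 bp, 7.28 kb from the nearest start. The window in Ddr1, which encodes a collagen-binding receptor tyrosine kinase, is chr17:35825759-35825788 on the plus strand, again opposite to its gene, and 3.5 bp from the centre. Synpo2l, an actin-associated gene of striated muscle, carried its match at chr14:21480375-21480404 on the minus strand, in a coding part of a last exon of 3520 bp. Flot1 encodes flotillin-1 of membrane rafts, and its match at chr17:35966841-35966870 on the plus strand was 9.5 bp from the centre. Ap1g1 encodes the gamma subunit of the adaptor complex AP-1, and its match lay at chr8:112377484-112377513 on the plus strand, 12.5 bp from the centre and in an exon of 105 bp. In 3 of the 5 the motif ran along the gene and in 2 against it. The nearest Novus peak was 19961 bp away for Synpo2l and 765 kb away for Ap1g1.

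By their centres, the exon peaks divided between coding and untranslated sequence as exon sequence itself does. Of the 551, 295 were centred in coding sequence (53.5%, exact 95% interval 49.3 to 57.8%), 251 in a 3′ untranslated stretch (45.6%, 41.3 to 49.8%) and 5 in a 5′ untranslated stretch (0.907%, 0.295 to 2.10%). A centre that is coding in any transcript was counted as coding, and 15 of the 295 were also untranslated in another transcript. Of all exon bases more than 1 kb from a start, 53.0% were coding, 45.9% 3′ untranslated and 1.12% 5′ untranslated, each within the interval of the peaks. Intervals treat peaks as independent and cover counting error only.

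**Figure D1:**
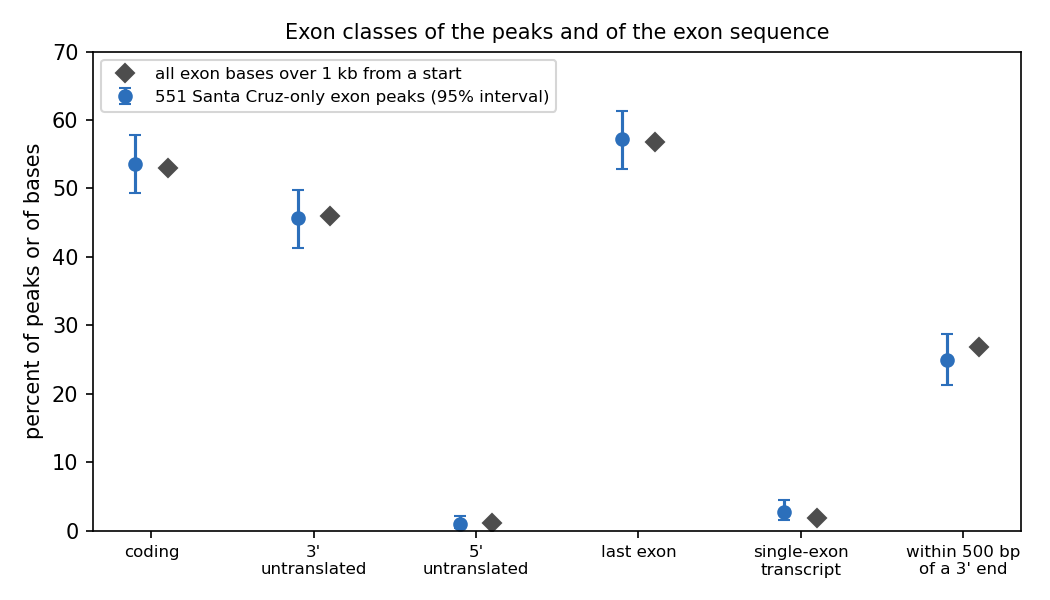
Percent of the 551 Santa Cruz-only exon peaks in each exon class (circles, exact 95% interval) beside the percent of all exon bases more than 1 kb from a start in the same class (diamonds). Classes overlap, and each base share lies within the interval of the peaks, for example 53.0% of bases against 53.5% of peaks in coding sequence.

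Last exons took 315 members (57.2%, 52.9 to 61.3%), beside 56.8% of the exon bases. A further 15 members lay in single-exon transcripts (2.72%, against 1.90% of bases), and 4 in the first exon of a longer transcript. The last exon share differed between the classes, for members as for exon bases. Of the 251 in 3′ untranslated sequence, 242 were in a last exon (96.4%, beside 96.9% of 3′ untranslated bases). Of the 295 coding ones it was 72 (24.4%, 19.6 to 29.7%, beside 23.0% of coding bases). Per megabase (Mb) of sequence, coding members numbered 10.8 in last exons (95% Poisson interval 8.44 to 13.6) and 9.97 elsewhere (8.70 to 11.4).

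The share at annotated 3′ ends was also close to that of exon sequence. Within 500 bp of an end lay 137 of them (24.9%, 21.3 to 28.7%), beside 26.8% of the exon bases. By distance to the nearest 3′ end, the density was 8.91 per Mb of exon within 200 bp, 9.62 from 200 to 500 bp, 11.4 from 500 to 1000 bp, 9.92 from 1000 to 2000 bp, 12.5 from 2000 to 5000 bp and 8.84 beyond. All 6 Poisson intervals overlapped. Past the ends, in sequence between genes, Santa Cruz-only peaks numbered 8.93 per Mb in the first 500 bp (7.07 to 11.1) and 9.12 per Mb from 2500 to 3000 bp (7.22 to 11.4), and the intervals overlapped with those of the exon bins next to the end.

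**Figure D2:**
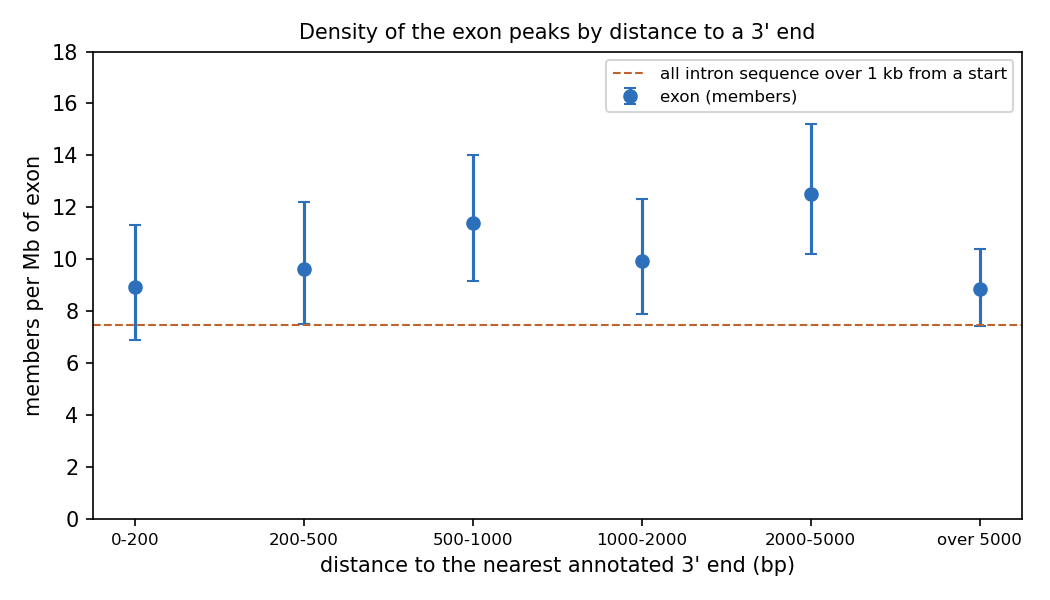
Members per Mb of exon sequence by distance of the peak centre from the nearest annotated 3′ end, in bp (circles, 95% Poisson interval), with the density of Santa Cruz-only peaks in introns as a dashed line at 7.47 per Mb. The 6 intervals overlap, from 8.84 to 12.5 members per Mb.

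The 5 members closest to a 3′ end were in Tmem90a (0 bp), N4bp1 (1 bp), Lgals7 (2 bp), Abpb (2 bp) and Rnf43 (5 bp), all in 3′ untranslated sequence of a last exon. Lgals7 encodes a galectin, and Rnf43 a ubiquitin ligase that removes Wnt receptors from the cell surface. In N4bp1 and Rnf43 the end belongs to one of several transcripts, since the exon ran on for at least 706 and 389 bp on each side of the centre. At the other extreme, the members farthest from any exon edge lay in exons of 7039 to 12851 bp. They were Eif2c3, an Argonaute gene (5454 bp from the edge), Arhgap32 (4758 bp), Prdm11, a PR-domain gene (4104 bp), Cmya5, a muscle gene (3759 bp), and Kpna4, an importin (3145 bp). Cmya5 was the one of these centred in coding sequence, in an exon of 9310 bp.

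Exons around the members differed by class. The same lengths and distances are not given here for all exon sequence, so that the contrast is not shown to be particular to the members. Coding members sat in exons with a median of 205 bp (quartiles 129 and 1038 bp), about the width of the peak, which is 187 bp in this list. Their centres were a median of 53.0 bp from the exon edge, and 104 of the 295 peaks lay wholly inside 1 exon. Members in 3′ untranslated sequence sat in exons with a median of 2534 bp, a median of 539 bp from the edge, and 230 of the 251 lay wholly inside the exon. Most coding members therefore also covered intron, so that the list places the centre, and not the whole peak, in coding sequence.

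Away from starts, exons held more Santa Cruz-only peaks per Mb than introns, and introns more than sequence between genes. The densities were 10.0 per Mb in exons (9.23 to 10.9), 7.47 in introns (6601 peaks, 7.30 to 7.66) and 4.60 between genes (7173 peaks, 4.50 to 4.71). Each Mb counts every base of known sequence, also bases to which reads could not be mapped, and the part of mapping in these differences was not tested. Coding and 3′ untranslated exons had nearly the same density, 10.2 (9.03 to 11.4) and 9.97 (8.78 to 11.3) per Mb. Within 1 kb of a start it was 41.2 per Mb (2426 peaks), above the intervals of all 3 kinds of sequence.

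**Figure D3:**
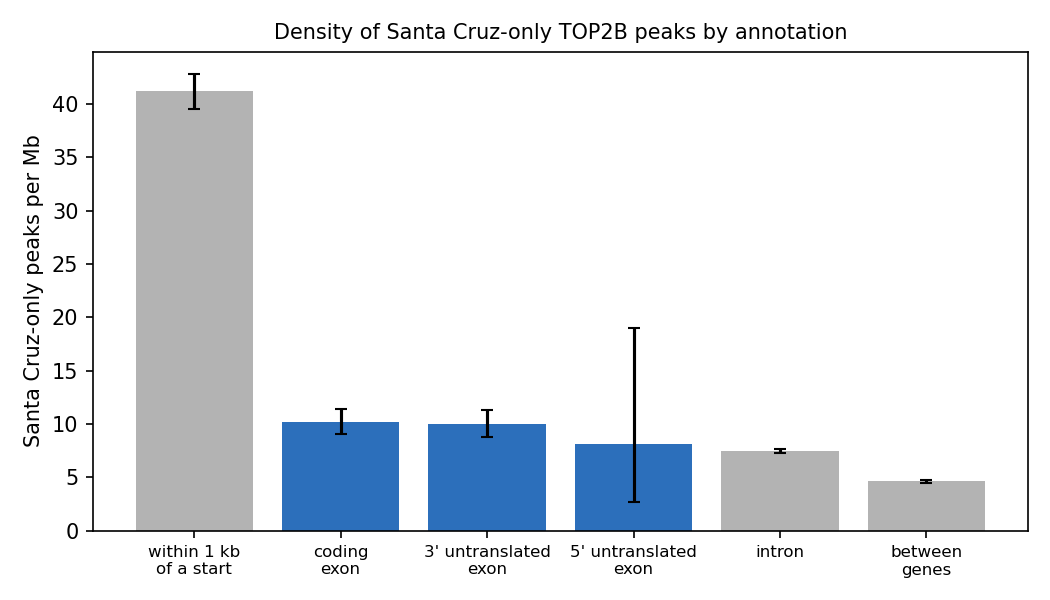
Santa Cruz-only TOP2B peaks per Mb of sequence within 1 kb of a protein-coding start and, beyond 1 kb, in coding, 3′ untranslated and 5′ untranslated exons (blue), in introns and between genes (grey). Bars start at 0 and carry 95% Poisson intervals; coding exons at 10.2 and 3′ untranslated exons at 9.97 per Mb stand between promoters at 41.2 and introns at 7.47.

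Part of the exon sequence lies close to starts, and the density was compared at equal distances. From 1 to 2.5 kb from a start, exons held 14.7 peaks per Mb (82 members, 11.7 to 18.3) and introns 12.5 (11.5 to 13.6), and the intervals overlapped. From 2.5 to 5 kb the exon density was 8.64 (6.64 to 11.1), below that of the closest bin, with intervals that did not meet. Exons and introns differed beyond their intervals from 20 to 50 kb, where exons held 12 per Mb (148 members, 10.1 to 14.0) and introns 7.85 (7.48 to 8.23). In the other bins the intervals overlapped and the direction was mixed. Exons were below introns from 2.5 to 5 kb (8.64 against 9.55 per Mb) and from 10 to 20 kb (8.25 against 8.82), and above them from 5 to 10 kb (10.7 against 8.98) and beyond 50 kb (6.71 against 5.08). Beyond 50 kb coding exons held 4.27 per Mb (16 members, 2.44 to 6.94) and 3′ untranslated exons 9.36 (33 members, 6.45 to 13.2). Coding exons were also the lower from 2.5 to 5 kb. They were the higher from 1 to 2.5 kb and in each bin from 5 to 50 kb. The intervals of coding and 3′ untranslated exons overlapped in every bin, also beyond 50 kb, so no difference between these classes was shown.

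**Figure D4:**
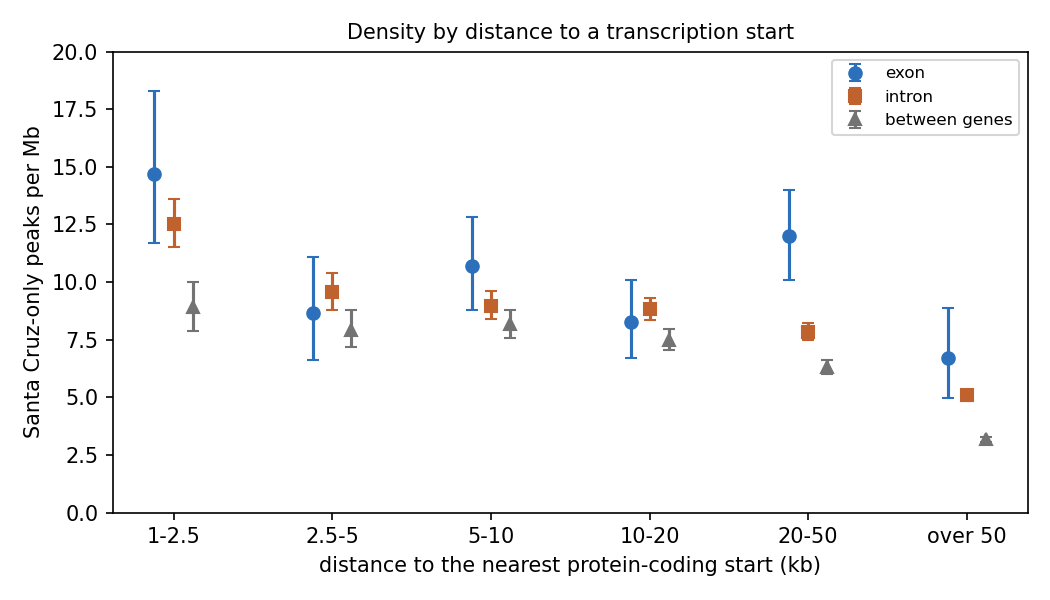
Santa Cruz-only peaks per Mb in exons (blue), introns (orange) and between genes (grey) by distance from the nearest protein-coding start in kb, with 95% Poisson intervals. Exons stand above introns beyond the intervals from 20 to 50 kb, at 12 against 7.85 per Mb.

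The distance limit itself fell in a continuous run of peaks. The members just beyond it were in Zcchc2 (1007 bp), 2810432D09Rik (1008 bp), Adra2b, an alpha-2 adrenergic receptor (1009 bp), Leng9 (1028 bp) and Man2a1, a Golgi mannosidase (1032 bp), all in coding sequence. The Santa Cruz-only exon peaks just within it, which are not members, were in Muc2 (962 bp), Sgca (961 bp), B230312A22Rik (950 bp), Kdm6b (944 bp) and Stard9 (941 bp). Transcripts of other types start near some members too: 41 of the 551 (7.44%) were within 1 kb of the start of an annotated transcript of any type, beside 6.62% of the eligible exon bases.

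Members were richer in G and C than exon sequence in general. The median GC content of the 187 bases around the centre was 51.9% for members (minimum 24.6%, maximum 72.2%). It was 47.6% for all exon windows more than 1 kb from a start. In coding sequence the medians were 54.0% for members and 50.8% for all windows, and in 3′ untranslated sequence 49.7% and 43.9%. Members numbered 2.67 per Mb of exon windows below 40% GC, 9.08 from 40 to 50%, 14.7 from 50 to 60% and 17.4 at 60% and above. Intron peaks had a median of 47.1% against 42.8% for all intron windows, so that the higher GC was seen there as well. The part of GC content in the difference between exon and intron densities was not tested. Windows of 501 bp with at least 55% GC and an observed to expected CpG ratio of at least 0.6, as in CpG islands, surrounded 24 coding members and 3 in 3′ untranslated sequence, 4.90% of members together. For Santa Cruz-only intron peaks the share was 0.470%. It is not given here for all exon windows, so that 4.90% is not shown to be high or low for exon sequence.

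A CTCF core motif of 12 bases, with up to 1 mismatch and on either strand, lay within 250 bp of the centre of 101 members (18.3%, 15.2 to 21.8%). Of all exon positions more than 1 kb from a start, 5.40% had such a match, and 6.62% when weighted to the GC classes of the members. Coding members had a match in 56 of 295 (19.0%, 14.7 to 23.9%, beside 5.82% of coding positions) and those in 3′ untranslated sequence in 44 of 251 (17.5%, 13.0 to 22.8%, beside 4.92%). Within GC classes, the share was 15.9% of members against 4.19% of exon positions from 40 to 50% GC, 18.5% against 7.58% from 50 to 60%, and 32.3% against 11.7% at 60% and above. Below 40% GC, 1 of 34 members had a match (2.94%, 0.0744 to 15.3%), beside 2.31% of positions. Santa Cruz-only peaks outside exons also had a higher share than their own sequence, 14.3% against 4.46% in introns and 16.1% against 3.57% between genes, so that the excess was not particular to exons. A match is a description of the sequence and not a site of binding.

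Of the 101 matches, 32 lay within 50 bp of the peak centre (31.7%, 22.8 to 41.7%), a stretch that makes up 20.5% of the window, and the share was 33.5% for the matches of Santa Cruz-only intron peaks. Where a window held several matches, which was so for 8 members, the one with the fewest mismatches and then the nearest to the centre was taken. In 49 of the 101 the motif was on the strand of the gene (48.5%, 38.4 to 58.7%). A match without mismatch was found for 30 members (5.44%, 3.70 to 7.68%), 12 of them within 50 bp of the centre, and the sequences in Coro7, Ddr1, Synpo2l, Flot1 and Ap1g1 above are among these. Members on chromosome 18 were not considered for the sequences shown.

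**Figure D5:**
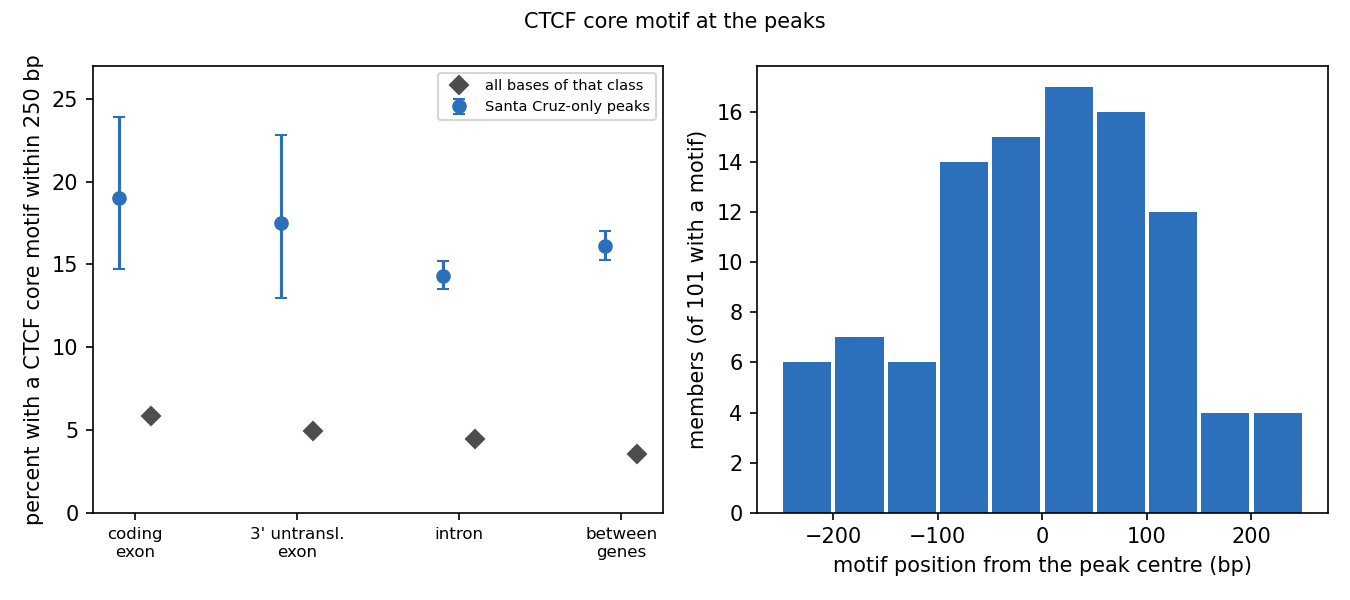
Left, percent of Santa Cruz-only peaks with a CTCF core motif within 250 bp of the centre, by the sequence the centre lies in (circles, exact 95% interval), and the same percent over all positions of that sequence (diamonds). Right, positions of the 101 matches of members from the peak centre in bins of 50 bp, with 15 and 17 members in the bins on either side of the centre.

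The same shares were compared with 82 Novus-only exon peaks, 22 exon peaks common to both antibodies and, for the motif, the 6601 Santa Cruz-only intron peaks, all placed by the same rules (9 two-sided Fisher's exact tests, with Benjamini-Hochberg adjustment over the 9). Peaks are not replicates and each antibody has 1 library, so each p covers counting error between the lists only and does not compare the antibodies. None passed an adjusted p of 0.05. Coding sequence held 53.5% of members and 58.5% of Novus-only exon peaks (95% interval of the members' share minus the other -15.88 to 6.57 percentage points, Fisher's exact adjusted p = 0.735). The difference from common peaks was -14.64 points (-30.65 to 6.62, Fisher's exact adjusted p = 0.443). Last exons held 57.2% of members and 67.1% of Novus-only exon peaks, a difference of -9.90 points (-20.01 to 1.58, Fisher's exact adjusted p = 0.282). For 3′ ends the shares were 24.9% and 24.4%, a difference of 0.47 points (-10.38 to 9.33, Fisher's exact adjusted p = 1.00). Each of these intervals reaches a difference of at least 10 points, so that the lists were not shown to be alike.

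The motif share of members was higher than that of intron peaks by 3.98 points (18.3% against 14.3%, 0.85 to 7.53, unadjusted Fisher's exact p = 0.0143, adjusted p = 0.129). Exon positions more than 1 kb from a start also had a match more often than such intron positions (5.40% against 4.46%). The part of the sequence in the difference of 3.98 points was not tested. Of the common exon peaks, 8 of 22 had a match (36.4%), a difference of -18.03 points (-38.94 to -1.05, unadjusted Fisher's exact p = 0.0488, adjusted p = 0.220). Novus-only exon peaks had a match in 17 of 82 (20.7%, a difference of -2.40 points, -12.83 to 5.73). Windows like CpG islands surrounded 4.90% of members, 18.3% of Novus-only exon peaks and 31.8% of common ones, which was not tested.

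Few members had a Novus peak near, in a list that holds only 3564 peaks over the genome. The median gap to the nearest was 121 kb, 34 members were within 10 kb of one (6.17%, beside 7.67% of all Santa Cruz-only peaks), and 8 within 1 kb. The closest were in Slc43a2, an amino acid transporter (22 bp), Sin3b, a scaffold of histone deacetylase corepressors (48 bp), Tbc1d10c, a lymphocyte regulator of Ras and calcineurin (61 bp), Tnrc6b, an Argonaute partner (100 bp), and Fbxw11, an F-box subunit of a ubiquitin ligase (111 bp). These 5 gaps are shorter than the 187 bp of a peak, but no base was shared. On the other side of the rule, the common exon peak with the smallest shared stretch, in Dmpk, shared 62 bases with its Novus peak. The next Santa Cruz peak was a median of 19.5 kb from a member, against 27.3 kb over the whole list, and 12 members had one within 1 kb (2.18%, beside 4.13% of all Santa Cruz peaks).

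The members were spread over many genes. They fell in exons of 537 genes, 2.66% of the 20170 protein-coding genes with an exon base more than 1 kb from every start, and no gene held 3 or more. There were 16 genes with 2 members, in 9 of them both in 3′ untranslated sequence, in 3 both coding and in 4 one of each. The number that exon length alone would give was not worked out, and the pairs named here were chosen after their positions were seen. In 10 of the 16 the centres were under 2 kb apart. The closest pairs were 544 bp apart in Zfp219, a zinc finger gene with both in 1 coding exon, and 625 bp apart in the 3′ untranslated part of Tkt, which encodes the transketolase of the pentose phosphate pathway. Smad5, a transducer of BMP signals, held 2 in its last exon, 1544 bp apart. The pair in Man2a1 lay 39.9 kb apart, 1032 bp from a start and in the last exon.

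The share of genes with a member followed the length of their exons, from 0.521% in the fifth of genes with the least exon sequence beyond 1 kb of a start to 5.85% in the fifth with the most. Per Mb of exon the members numbered 9.28, 9.51, 11, 10.1 and 9.66 in the 5 groups, so that long genes held more members and not a higher density. By chromosome the density ran from 4.35 per Mb of exon on chromosome 16 (8 members, 1.88 to 8.57) to 14.2 on chromosome 11 (59 members, 10.8 to 18.4).

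The starts of genes with a member were looked up in both lists. A Santa Cruz peak lay within 1 kb of one of the gene's own starts in 106 of 537 genes (19.7%, 16.5 to 23.4%), beside 13.1% of all 20170. A Novus peak, from the library in which the members themselves have none, lay there in 44 (8.19%, 6.02 to 10.8%), beside 5.60% of all genes. Genes with a member had more exon sequence (median 3.83 kb against 2.15 kb). Among the 5 groups of genes by exon length, the share with a Santa Cruz peak at a start was lower with a member than without in the shortest (4.76% against 7.05%, 21 genes with a member). It was higher in the others, at 15.4% against 10.6%, 18.6% against 13.6%, 21.4% against 15.7% and, in the longest, 21.6% against 18.2%. For a Novus peak the shares were 0 against 2.59% in the shortest, then 5.77% against 4.24%, 7.22% against 5.13%, 7.63% against 7.48% and 10.2% against 8.37%. These differences were not tested, and the part of gene length in them was not tested.

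Lists of genes that matter in thymocytes held few members, and the interval of each of the 5 lists includes the 2.66% of all genes. That share takes no account of exon length, which differed between the lists. Per Mb of exon, T-cell receptor signalling genes held 18.7 members, immediate early genes 14.7 and genes of cohesin, CTCF and topoisomerases 10.5. Chromatin regulators held 3.30 and T-lineage transcription factors 0, beside 10.0 over all exons, each value from at most 2 members. Among 32 genes of T-cell receptor signalling, 2 held a member: Nfatc1 and Nfatc3, which encode transcription factors that calcineurin brings into the nucleus (6.25%, 0.766 to 20.8%). The Nfatc1 peak was in the 3′ untranslated part of the last exon, 340 bp from the end, and the Nfatc3 peak at chr8:108627870-108628056 in an internal coding exon of 127 bp. None of 23 T-lineage transcription factor genes held a member (0 to 14.8%). Among 30 immediate early genes (3.33%, 0.0844 to 17.2%) it was Jun alone, a subunit of the transcription factor AP-1, with a peak at chr4:94717333-94717519, in coding sequence 1436 bp from the nearest protein-coding start, 799 bp from the start of a transcript of another type and 498 bp from a 3′ end. Among 20 genes of cohesin, CTCF and topoisomerases (5.0%, 0.127 to 24.9%) it was Mau2, a subunit of the cohesin loader, with a peak at chr8:72542129-72542315, in the 3′ untranslated part of the last exon. Among 37 chromatin regulators (2.70%, 0.0684 to 14.2%) it was Kdm6b, a demethylase of lysine 27 of histone H3, with a peak at chr11:69214745-69214931, in an internal coding exon of 115 bp, 3102 bp from the nearest protein-coding start and 177 bp from the start of a transcript of another type. None of these 5 peaks had a CTCF core motif within 250 bp.

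Gene families picked by symbol gave small counts too, to be read against the same 2.66% of all genes, which takes no account of exon length. C2H2 zinc finger genes held members in 11 of 429 (2.56%, 1.29 to 4.54%). Protocadherins, which are adhesion genes, held members in 4 of 36 (11.1%, 3.11 to 26.1%), and only their interval lay above that share. These were Pcdh19, Pcdha11, Pcdhb16 and Pcdhb17, the last pair with centres 6724 bp apart and both coding. Per Mb of exon, protocadherins held 24.2 members, beside 10.0 over all exons, a difference that rests on 4 genes and was not tested. Splicing factors held members in 2 of 53 (3.77%, 0.460 to 13.0%), Hnrnpa0 and Prpf8, a core protein of the spliceosome, whose peak was 157 bp from the start of a transcript that is not protein-coding. Among histone genes 1 of 23 held a member (Hist1h2be, 4.35%, 0.110 to 21.9%), which made 36.1 per Mb of exon. Among olfactory receptors it was 1 of 418 (Olfr558, 0.239%, 0.00606 to 1.33%), with a median of 0.0660 kb of exon beyond 1 kb of a start for each. Per Mb of exon these receptors held 8.44 members, beside 10.0 over all exons, so that the low share of genes goes with little exon sequence. Genes with symbols that begin with Rpl or Rps held 0 of 92 (an exact upper limit of 3.93%), collagens 0 of 44 (8.04%) and MHC genes 0 of 37 (9.49%).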

How the data were processed

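ChIPmentation libraries were made from thymocytes of 4 to 6-week old mice. The submitters' processing notes name Bowtie 1.2.0 and HOMER, by which the authors mapped reads (mm9) and called the peaks of each library over IgG. The deposited lists give positions only, at one width per list (187 bp for Santa Cruz, 195 bp for Novus). Their deposited score column is 0 throughout, so no height or p-value per peak was used, and the read depth behind a peak is unknown.

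Every peak lies within the chromosome lengths of the mm9 (NCBIM37) sequence used. Exons and starts come from 51694 transcripts of type protein_coding in GENCODE M1, on the same build. Shares of sequence count every base with known sequence that the placement rule allows. Intervals are exact at 95%, for differences Newcombe's. The CTCF core motif was searched by its consensus; both strands, 1 mismatch. The placement, motif search and Fisher's exact tests were tested on simulated data. Python 3.11.15, numpy 2.4.6, scipy 1.17.1, pandas 2.3.3, statsmodels 0.14.6 and matplotlib 3.10.9 were used.

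The members, gene lists and tests were chosen with earlier results of these data known. Genes were named by position: genes with 3 or more members (none), genes of the curated lists, the 5 members closest to a 3′ end, farthest from an exon edge, on either side of the 1 kb limit and closest to a Novus peak, and the 5 coding members with the motif (outside chromosome 18, and with 30 coding bases around the match). Genes of the families picked by symbol, and pairs, were named after their positions were seen. Alternatives were other start and Novus distances, transcript choices, 1 peak per gene, and motif and 3′ end settings; the use of exons of every transcript, coding members alone and the start of any transcript were added after the data were seen.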

Additional observations from a re-analysis of the deposited data

How the results depend on the processing

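No paired analysis was possible because each antibody has 1 library and no replicate number; for the same reason no library could be left out. With 1 peak per gene, at least 1 kb from Novus peaks, more than 2.5 kb from starts, or without 1 of the genes that tie for the most members, all 4 shares stayed within the intervals given. Without any start limit there were 1229 peaks, of which 40.2% were coding, 27.2% in a last exon, 14.3% within 500 bp of a 3′ end and 13.8% with a CTCF core motif. The exon sequence allowed changed as well, and its shares without the limit are not given here. Counting a peak with any base in an exon gave 843, exons of every transcript of protein-coding genes 651, exons of every annotated transcript 756, and transcripts of level 1 or 2 only 395. Of the members' exon bases, 47.7% were coding, below the interval of the share by centre (49.3 to 57.8%). Most coding members also covered intron. The last exon share was 51.4% with 1 transcript per gene (512 members) and 24.4% for coding members alone. By construction, the 3′ end share was 12% within 200 bp and 41.0% within 1 kb, and the motif share 5.44% without mismatch and 11.1% within 100 bp of the centre. No difference between lists passed the adjusted threshold under any alternative run. The difference in 3′ end share from Novus-only exon peaks turned its sign, to -0.78 points more than 2.5 kb from starts and -6.82 points with level 1 or 2 transcripts (Fisher's exact adjusted p = 0.883 and 0.528); the cause was not tested. The 22 common and 82 Novus-only exon peaks limit these comparisons.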
